A study of Mus musculus with 23 samples.

Results

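The genes described here carry insulin, insulin-like growth factor (IGF) and growth hormone signals: the ligand Igf1, the receptors Igf1r, Insr and Ghr, the adaptors Irs1 and Irs2, and the binding proteins Igfbp2, Igfbp3, Igfbp4 and Igfbp5. Members were all non-control array probes that the scanner files name for 1 of these 10 genes, which gave 19 of 39429 probes and 10 of 31829 genes. Expression was measured in the whole brain, cerebrum and cerebellum included, of 12 male mice aged 19 weeks, 4 in each of 3 groups, with 1 single-colour Agilent array per mouse. The groups differ in the diet of the recipient mother, given from 1 month before embryo transfer until delivery. The control diet (CD) held 20% casein and 0.02% folic acid, and the protein-restricted diet (PR) 5% casein and 0.02% folic acid. The third diet (FA) was the PR diet with 5% casein and folic acid raised to 0.1%. Every pup came from C57BL/6J eggs and sperm joined in vitro, was carried by an ICR recipient, delivered by cesarean section, raised by an ICR foster mother, whose own diet the study's descriptions do not settle, and fed the CD after weaning, and the brains were taken after behavioural testing. Any effect of diet before weaning, in the womb or while nursing, is read in adult brains, and those stages cannot be told apart here. Each diet was hybridised on its own slide in its own scan, and for every difference below the slide and the diet cannot be told apart.

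Insulin and IGF1 bind related receptor tyrosine kinases, Insr and Igf1r, which phosphorylate the docking proteins Irs1 and Irs2 and through them switch on phosphoinositide 3-kinase, Akt and mTOR, while FoxO transcription factors are held out of the nucleus. Growth hormone acts through Ghr, the kinase Jak2 and Stat5, and in many tissues drives transcription of Igf1, whose protein travels bound to IGF-binding proteins. In the brain these pathways serve neuronal growth, myelination, and the control of feeding and metabolism.

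All values are log2 normalised intensities or differences of them. Intensities of different probes depend on the probe as well as on the transcript, and none is set against another as a level. Of the 19 member probes, 18 were well above background on all 12 arrays. The tissue carried the markers of brain: the neuronal genes Snap25, Syt1, Tubb3 and Nefl and all 6 cerebellar markers were well above background on every array. Of 4 liver genes Alb and Apoa1 were so on none, Serpina1a on 2 CD, 4 PR and 4 FA arrays, and Ttr, also a choroid plexus gene, on all. RNA was taken from bulk tissue, where fewer cells of a type and less RNA per cell cannot be told apart.

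Calls rest on limma with Benjamini-Hochberg adjustment over all 39429 probes at an adjusted p under 0.05. Against the CD group, 4 of the 19 member probes were called lower and 2 higher in the PR group, where 16.6% of all probes were called lower and 13.4% higher. With each gene taken by its brightest probe, the one with the highest mean over the 12 arrays, Irs1 and Ghr were called lower (2 of 10 genes) and Igfbp4 higher (1 of 10). The same rule called 14.1% lower and 15.2% higher among the 18913 genes whose brightest probe was well above background on all 12 arrays, so that the PR counts lie near the background.

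In the FA group 8 of the 19 probes were called lower than in the CD group and 2 higher, beside 18% and 16.4% of all probes. By brightest probe these were Igf1r, Irs1, Irs2, Igfbp5 and Ghr among the lower (5 of 10 genes, beside 16.4% of the 18913 genes) and Igfbp4 among the higher (1 of 10, beside 19.1%). Between the FA and PR groups only the Irs2 probe was called, lower in FA. That is 1 of 19 probes beside 0.386% of all probes, and 1 of 10 genes beside 0.518%. No member was called higher in FA than in PR by limma (background 0.228% of probes and 0.254% of genes), none at an unadjusted p under 0.05 and none by Tukey's test.

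The study's methods set a stricter limit, a change of 2-fold or more with adjusted p below 0.0001, which by limma was passed by 0 of the 19 probes in each comparison, beside 0.0862% of all probes in PR against CD, 0.195% in FA against CD and 0% in FA against PR, all by limma. Tukey's test, which the methods used, gave 0 of the 19 at that limit too, and limma gave 9, 10 and 2 of the 19 probes at an unadjusted p under 0.05. Over the 10 genes the median log2 change was 0.06 in PR and -0.05 in FA against CD and -0.08 in FA against PR, beside -0.01, 0.01 and 0.01 over the 18913 genes. Both comparisons with the CD group use the same 4 CD brains, and their values stand side by side without a count of agreement.

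Igf1 encodes the secreted growth factor itself and is covered by 5 probes on the forward strand of chromosome 10 (mm9). Its brightest probe, A_55_P2085979, named for transcript variant 2 (chr10:87378456-87378515), read 9.73, 9.80, 9.78 and 10.25 in the CD brains, 10.01, 9.86, 9.99 and 9.94 in the PR brains, and 9.83, 9.96, 10.10 and 9.99 in the FA brains. CD replicate 4 was the highest of the 12, and the other CD brains were the lowest. The fitted log2 change was 0.06 ± 0.109 (SE, n = 4 per group) in PR and 0.08 ± 0.109 in FA, with limma adjusted p = 0.718 and 0.601. Both results depend on single CD brains. Without CD replicate 4 the change was 0.18 in PR (adjusted p = 0.0674) and 0.20 in FA (adjusted p = 0.0404), and over all left-out arrays it ran from 0 to 0.18 in PR and from 0.03 to 0.20 in FA.

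The remaining 4 Igf1 probes are named for transcript variant 1 and lie downstream, at least 15045 bases from the first. One of them, A_55_P2031631 (chr10:87393581-87393640), read 7.61, 7.67, 7.54 and 7.62 in CD, 7.24, 7.23, 7.46 and 7.30 in PR, and 6.99, 7.23, 7.32 and 7.0 in FA. All 4 PR and all 4 FA brains were below all 4 CD brains. The signal fell by 0.30 in PR (95% interval -0.49 to -0.12, limma adjusted p = 0.0192) and by 0.47 in FA (-0.66 to -0.29, adjusted p = 0.00165). Without PR replicate 1 the PR change was -0.28 and its adjusted p 0.0504, and by the Tukey test it was 0.0594.

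A_55_P2085984 (chr10:87393561-87393620) shares 40 of its 60 bases with that probe, and its fitted changes had the same sign and a smaller size. It read 7.02, 7.10, 7.04 and 6.79 in CD, 6.84, 6.81, 6.71 and 6.57 in PR, and 6.88, 6.70, 6.72 and 6.46 in FA, so that CD replicate 4 lay among the other groups. The change was -0.26 in PR (limma adjusted p = 0.0784) and -0.30 in FA (adjusted p = 0.0399). The FA call was lost on leaving out CD replicate 1, 2 or 3, PR replicate 3, or FA replicate 2, 3 or 4 (adjusted p 0.0537 to 0.0981), with only 2 groups (0.0641), by the Tukey test (0.12) and in a setting that combines normexp background correction, an offset of 50 and quantile normalization, where the change was -0.08 (adjusted p = 0.273). The PR change was called without CD replicate 4 (-0.32, adjusted p = 0.0348) and with the replicate block (-0.26, adjusted p = 0.0103). The overlapping probes share sequence and are not independent measurements of Igf1. Over all arrays they correlated at r = 0.609, and with the group means removed at r = -0.0538.

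The outermost Igf1 probe, A_55_P2085974 (chr10:87399581-87399640), averaged 8.40 ± 0.07 (SD, n = 4) in CD, 8.24 ± 0.04 in PR and 8.32 ± 0.11 in FA. Every PR brain was below every CD brain, yet the PR change of -0.17 had a limma adjusted p of 0.0566. It was 0.0315 without FA replicate 2 and 0.0488 without FA replicate 4, which enter only through the shared estimate of the spread, and 0.0413 with only 2 groups compared. A_55_P2031636 (chr10:87395924-87395983) averaged 5.86 ± 0.23 in CD, 5.99 ± 0.08 in PR and 6.10 ± 0.21 in FA, with adjusted p of 0.469 and 0.165. The fitted changes of the Igf1 probes thus differ in sign, but with all arrays included only falls were called. Averaging all 5 probes turns the Igf1 change from 0.06 to -0.11 in PR and from 0.08 to -0.11 in FA.

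Differences between probes were also taken within each array, as a description without a test. The difference A_55_P2031631 minus A_55_P2085979 was -2.12, -2.13, -2.24 and -2.63 in CD, -2.77, -2.63, -2.53 and -2.64 in PR, and -2.84, -2.73, -2.78 and -2.99 in FA. Its group means were -2.28 ± 0.24, -2.64 ± 0.10 and -2.83 ± 0.11 (SD, n = 4). CD replicate 4 had the difference of a PR brain and the other CD brains did not. Such a difference shows that the probes moved unequally and not which of them stayed level. The first 30 bases of each probe are shown, 5′ to 3′, because the result depends on which Igf1 probe is read. Capitals mark bases that both overlapping probes contain.
A_55_P2085979: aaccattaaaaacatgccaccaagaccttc
A_55_P2085984: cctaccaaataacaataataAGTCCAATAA
A_55_P2031631: AGTCCAATAACATTACAAAGATGGGCATTT
A_55_P2031636: agaaatgtaaatggaataagaggtcagctg
A_55_P2085974: ctcctgattgtatttgaagtggttattcaa

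**Figure D1:**
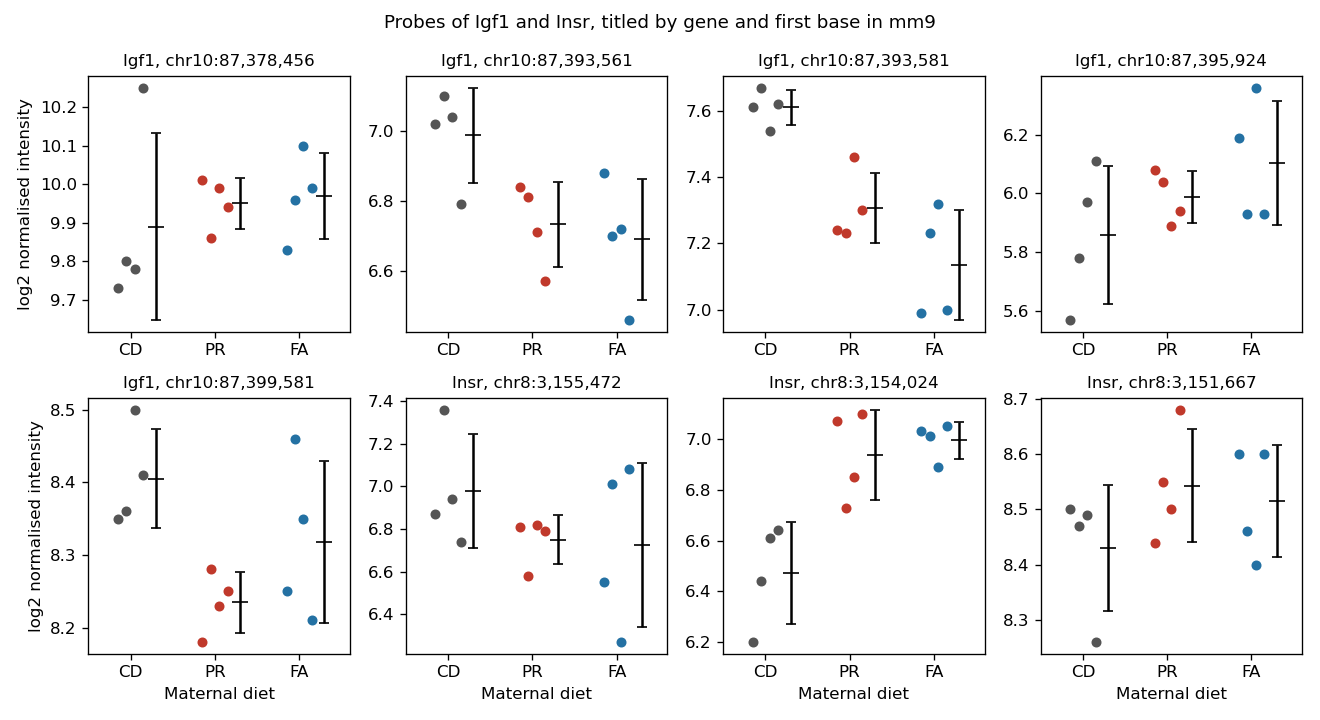
Log2 normalised intensity (vertical axes, each with its own range) of the 5 Igf1 probes and the 3 Insr probes in the CD, PR and FA groups; points are single brains, and bars are the mean and SD of 4. For the Igf1 probe that starts at 87393581 all CD brains lie above all others, and for the Insr probe that starts at 3154024 all lie below.

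Igf1r, the main receptor of IGF1, is read by A_66_P105801 (chr7:75378461-75378520, forward strand). It measured 12.42, 12.37, 12.40 and 12.35 in CD, 12.14, 12.31, 12.19 and 12.29 in PR, and 11.96, 11.94, 11.83 and 12.13 in FA. The 3 groups did not overlap in their order CD, PR, FA: each PR brain was below each CD brain and each FA brain below each PR brain. Igf1r fell by 0.42 in FA against CD (95% interval -0.56 to -0.28, limma adjusted p = 0.000721), or -25.3% in intensity, and 22 alternative settings all called it. The PR change was -0.15 (-0.30 to -0.01) with adjusted p = 0.0943, and -0.20 when arrays were scaled to their 75th percentile (adjusted p = 0.0348) or under the normexp and quantile setting (0.0298). Between FA and PR the change was -0.27 (-0.41 to -0.13), and its adjusted p of 0.0929 missed the threshold that few probes passed there.

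Insr, the insulin receptor, is read by 3 probes on the reverse strand of chromosome 8. Only A_55_P2172566 was called, and no difference between the probes was tested. The brightest, A_52_P494514 (chr8:3151667-3151726), averaged 8.43 ± 0.11 (SD, n = 4) in CD, 8.54 ± 0.10 in PR and 8.52 ± 0.10 in FA, and limma gave adjusted p = 0.306 and 0.422 against CD. A_55_P2172566 (chr8:3154024-3154083) read 6.20, 6.44, 6.61 and 6.64 in CD, 7.07, 6.73, 6.85 and 7.10 in PR, and 7.03, 7.01, 6.89 and 7.05 in FA. All 8 brains from low-protein pregnancies were above all 4 CD brains.

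At that probe the signal rose by 0.46 in PR (95% interval 0.22 to 0.71, limma adjusted p = 0.01) and by 0.52 in FA (0.28 to 0.77, adjusted p = 0.00438). All 22 alternative settings kept both calls, but the size depended on them, from 0.24 to 0.53 in PR and from 0.29 to 0.58 in FA. The third probe, A_55_P2173927 (chr8:3155472-3155531), averaged 6.98 ± 0.27 in CD, 6.75 ± 0.11 in PR and 6.73 ± 0.38 in FA. Its fitted changes of -0.23 and -0.25 pointed the other way with adjusted p = 0.379 and 0.326. The Insr probes lie within 3745 bases of each other, and their first 30 bases are shown for the same reason as those of Igf1.
A_55_P2173927: tttctgtttgtcttttgacctgaaaacaca
A_55_P2172566: acacagatggactttgagaacactaagcaa
A_52_P494514: cagattctagctaatgaattcttgacaaca

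Ghr, the growth hormone receptor, has a probe for each of 2 transcript variants on the reverse strand of chromosome 15. The variant 1 probe A_51_P499854 (chr15:3268107-3268166) read 9.84, 9.63, 9.88 and 9.85 in CD, 9.52, 9.60, 9.57 and 9.56 in PR, and 9.58, 9.52, 9.69 and 9.64 in FA. CD replicate 2 was low among the CD brains but still above each PR brain, while FA replicates 3 and 4 lay above it. Ghr variant 1 fell by 0.24 in PR (95% interval -0.37 to -0.10, limma adjusted p = 0.0139). The call was kept by 22 alternative settings for this probe and lost when the mean of all Ghr probes was taken (-0.16, adjusted p = 0.0744).

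The fall in FA was 0.20 (-0.33 to -0.06, limma adjusted p = 0.0287). This call was lost without CD replicate 1, 3 or 4 or FA replicate 1 or 2 (changes of -0.19 to -0.17, adjusted p 0.0622 to 0.0769), with only the 2 groups compared (0.0681), by the Tukey test (0.0654) and with the mean of all Ghr probes (-0.12, adjusted p = 0.156). The variant 2 probe A_55_P2059412 (chr15:3277543-3277602) averaged 7.56 ± 0.13 (SD, n = 4) in CD, 7.47 ± 0.14 in PR and 7.51 ± 0.09 in FA. Its changes of -0.09 and -0.05 had adjusted p = 0.458 and 0.684, with 95% intervals of -0.28 to 0.10 and -0.24 to 0.14 that include the changes of the variant 1 probe.

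Irs1, which docks signalling proteins to the activated insulin and IGF1 receptors, was lower in both low-protein groups. Its brightest probe, A_52_P175242 (chr1:82229692-82229751, reverse strand), read 11.08, 10.91, 10.97 and 10.79 in CD, 10.60, 10.65, 10.51 and 10.69 in PR, and 10.51, 10.56, 10.48 and 10.64 in FA. The lowest CD brain was above the highest PR and FA brains. Irs1 fell by 0.32 in PR (95% interval -0.47 to -0.18, limma adjusted p = 0.00488) and by 0.39 in FA (-0.54 to -0.24, adjusted p = 0.00142). In intensity these are -20.1% and -23.7%, and 22 alternative settings kept both calls.

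A second Irs1 probe, A_52_P171212 (chr1:82233564-82233623), is dim, and on CD replicate 4 it was not well above background. It read 5.97, 6.08, 5.71 and 5.35 in CD, 5.06, 4.93, 4.87 and 5.08 in PR, and 5.06, 5.60, 5.01 and 5.23 in FA. The PR brains were below all CD brains and FA replicate 2 was not. The probe fell by 0.79 in PR (limma adjusted p = 0.00545) and by 0.55 in FA (adjusted p = 0.0259). Under the normexp and quantile setting, which also adds an offset of 50, the changes were -0.18 and -0.12 (adjusted p = 0.0668 and 0.188). The FA call was also lost without CD replicate 1 or 2 or FA replicate 1, 3 or 4 (changes of -0.56 to -0.45, adjusted p 0.052 to 0.0717), with only 2 groups (0.0642) and by the Tukey test (0.0928).

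Irs2, the second docking protein, was the 1 member called between the FA and PR groups. Its probe, A_66_P102260 (chr8:11004490-11004549, reverse strand), read 13.69, 13.79, 13.60 and 13.63 in CD, 13.88, 13.74, 13.66 and 13.69 in PR, and 13.48, 13.22, 13.20 and 13.41 in FA. All 4 FA brains were below all 8 others, and the CD and PR brains overlapped. Irs2 fell by 0.35 in FA against CD (95% interval -0.52 to -0.18, limma adjusted p = 0.00606), and 22 alternative settings kept this call.

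Against PR the Irs2 change in FA was -0.41 (95% interval -0.59 to -0.24), or -24.9% in intensity, with limma adjusted p = 0.0488. This call sits at the threshold. It was lost when any 1 array other than FA replicate 1 was left out, with changes of -0.44 to -0.37 and adjusted p of 0.0572 to 0.116. It was also lost with 75th percentile scaling (0.0533), quantile normalization (0.0518), the replicate block (0.0881), only 2 groups (0.0981) and the Tukey test (0.148), and the range over 22 settings was 0.0239 to 0.148. In PR against CD the change was 0.06 (-0.11 to 0.24, adjusted p = 0.563), and it turned to -0.03 with scaling to the 75th percentile. The FA and PR diets differ by folic acid, and the slides differ with them.

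**Figure D2:**
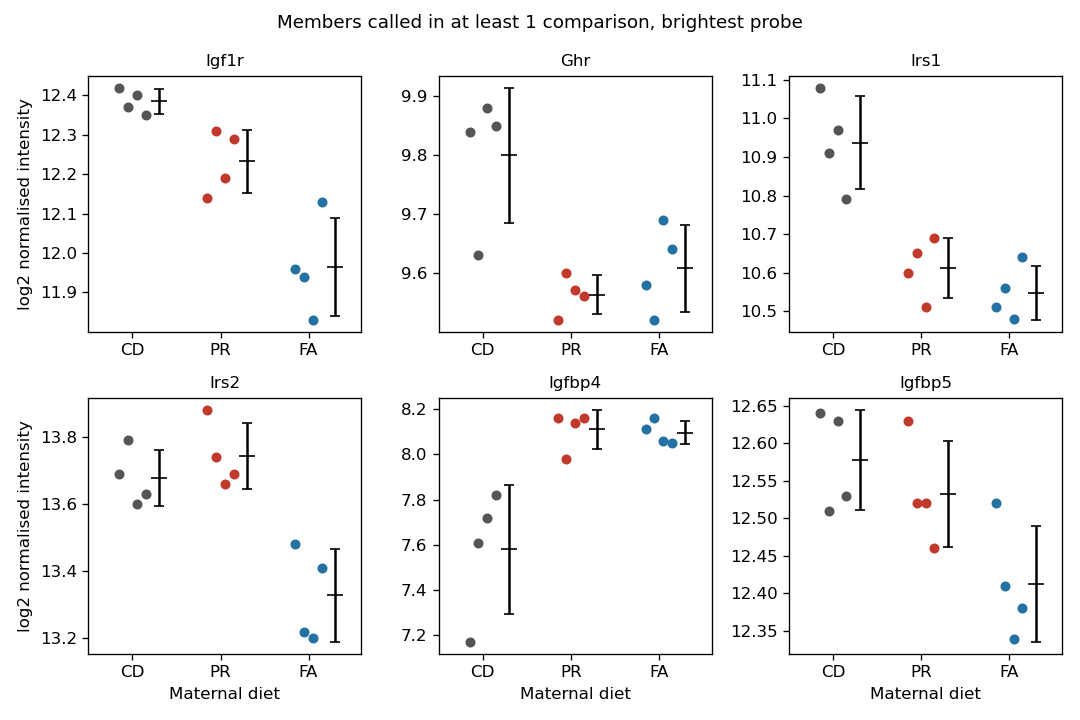
Log2 normalised intensity (vertical axes, each with its own range) of the brightest probe of Igf1r, Ghr, Irs1, Irs2, Igfbp4 and Igfbp5 in the CD, PR and FA groups; points are single brains, and bars are the mean and SD of 4. The FA brains are the lowest for Igf1r and Irs2, and the CD brains are the highest for Irs1 and the lowest for Igfbp4.

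Igfbp4, a secreted protein that holds IGFs away from their receptor until it is cleaved, was the 1 member gene called higher by its brightest probe. The probe A_52_P257502 (chr11:98913334-98913393, forward strand) read 7.17, 7.61, 7.72 and 7.82 in CD, 8.16, 7.98, 8.14 and 8.16 in PR, and 8.11, 8.16, 8.06 and 8.05 in FA. All CD brains were below all others, and the CD brains spread more widely (SD 0.29) than the PR (0.09) and FA (0.05) brains. Igfbp4 rose by 0.53 in PR (95% interval 0.27 to 0.80, limma adjusted p = 0.00776) and by 0.52 in FA (0.25 to 0.78, adjusted p = 0.00734). The folds were 1.44 and 1.43, and FA and PR differed by -0.01 (-0.28 to 0.25). The calls held in 22 alternative settings, with changes from 0.34 to 0.61 in PR and from 0.33 to 0.60 in FA.

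Igfbp5, a binding protein that associates with extracellular matrix, measured 12.64, 12.51, 12.63 and 12.53 in CD, 12.63, 12.52, 12.52 and 12.46 in PR, and 12.52, 12.41, 12.34 and 12.38 in FA at A_52_P281702 (chr1:72904829-72904888, reverse strand). FA replicate 1 lay within the CD range and the other FA brains below it. The fall of 0.16 in FA (95% interval -0.28 to -0.04) had a limma adjusted p of 0.0411. It was lost without CD replicate 1 or 3, PR replicate 2 or 3, or FA replicate 2, 3 or 4 (changes of -0.16 to -0.14, adjusted p 0.0538 to 0.105) under the normexp and quantile setting (-0.13, adjusted p = 0.121), with only 2 groups (0.0621) and by the Tukey test (0.0801). The PR change was -0.04 (-0.16 to 0.08, adjusted p = 0.595).

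Igfbp2, which the choroid plexus and glia secrete, lies beside Igfbp5 on chromosome 1, on the opposite strand, and their nearest probes are 5956 bases apart. Its brightest probe, A_66_P135391 (chr1:72898813-72898872), ranged from 12.28 to 12.62 in CD, 12.51 to 12.69 in PR and 12.47 to 12.70 in FA. The fitted changes were 0.15 (-0.04 to 0.33) and 0.06 (-0.13 to 0.24), with limma adjusted p = 0.217 and 0.634. The other Igfbp2 probe, A_55_P2056729 (chr1:72898677-72898736), changed by 0.03 and -0.04 with adjusted p = 0.855 and 0.753.

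Igfbp3, the main carrier of IGFs in serum, varied most among the CD brains. A_52_P253179 (chr11:7106594-7106653, reverse strand) read 7.67, 7.39, 8.25 and 7.77 in CD, and ranged from 7.89 to 8.20 in PR and from 7.69 to 7.91 in FA. CD replicate 3 was the highest of all 12 brains and CD replicate 2 the lowest. The PR change of 0.24 (-0.10 to 0.59) had a limma adjusted p of 0.266, and it ranged from 0.12 to 0.40 over 22 settings, being 0.40 with adjusted p = 0.0253 without CD replicate 3 and 0.12 without CD replicate 2 (Igfbp3, adjusted p = 0.569). In FA the change was 0.07 (adjusted p = 0.756), and it was -0.01 under the normexp and quantile setting and -0.06 without CD replicate 2.

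**Figure D3:**
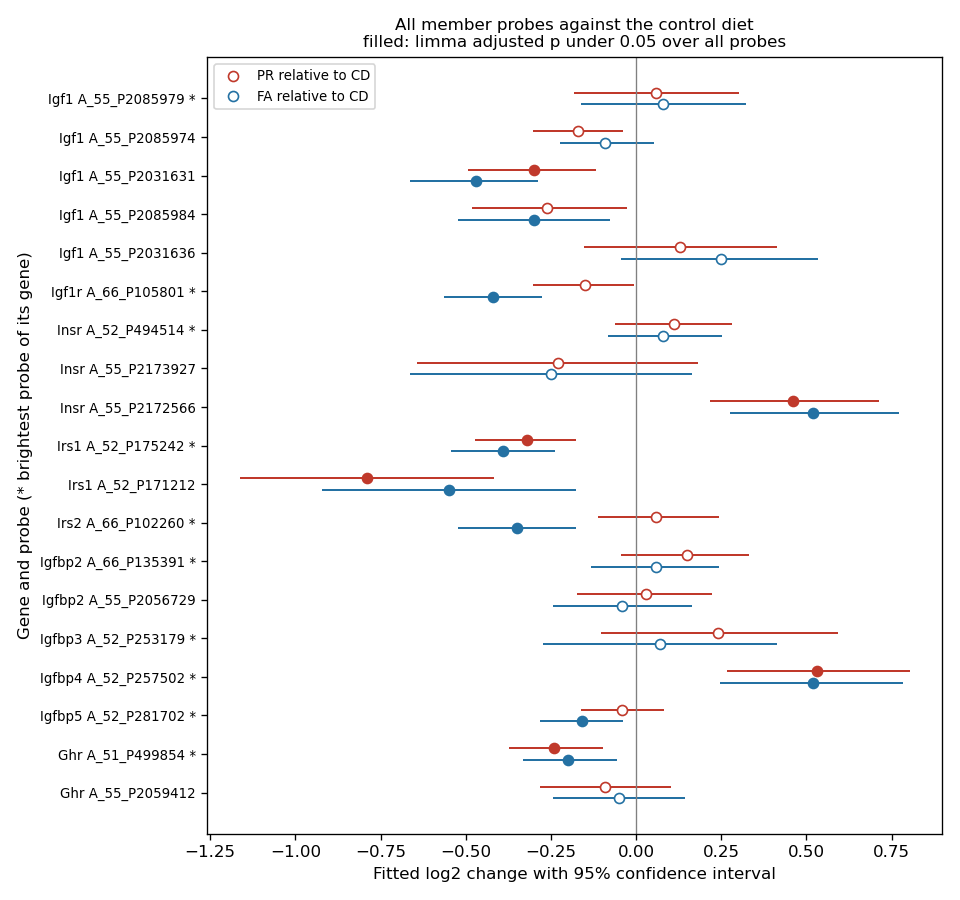
Fitted log2 change (horizontal axis) with its 95% confidence interval for each of the 19 member probes (vertical axis) in the PR (red) and FA (blue) groups relative to CD; filled points have a limma adjusted p under 0.05 over all 39429 probes. In both comparisons the points of Igfbp4 and of 1 of 3 Insr probes are filled and lie to the right of 0, and those of both Irs1 probes, the Ghr variant 1 probe and 1 of 5 Igf1 probes are filled and lie to the left.

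The rest of the pathway was described from lists of 65 further genes, of which 57 had a brightest probe well above background on all 12 arrays. Of these 57, limma called 13 lower and 5 higher in PR against CD, and 19 lower and 3 higher in FA against CD, beside the 14.1%, 15.2%, 16.4% and 19.1% given above. The medians were -0.07 and -0.06, beside -0.01 and 0.01. With the 8 genes that were dim on some or all arrays the calls were 15 lower and 6 higher of 65 in PR and 21 and 5 in FA. The added ones were Gh, Igfbp7, Foxo4 and, in FA, Ghrhr. Foxo4 was well above background on no array of any group. Between FA and PR none of the 57 was called by limma or by the Tukey test, and 7 had an unadjusted limma p under 0.05.

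Among the 13 measured genes of mTOR, GSK3 and FoxO, 4 were called lower and 1 higher in PR, and 7 lower and 1 higher in FA, with medians of -0.13 and -0.16. Beside them, 14.1% of the 18913 genes were called lower and 15.2% higher in PR, and 16.4% and 19.1% in FA. The transcription factor Foxo3 read 6.23, 6.64, 6.22 and 6.17 in CD, 5.21, 5.42, 4.95 and 4.44 in PR, and 4.71, 4.91, 4.95 and 5.0 in FA. It fell by 1.31 in PR and 1.42 in FA (limma adjusted p = 0.000659 and 0.000342), with no overlap between CD and the others. The Foxo3 probe was well above background on all 4 arrays of each group, but it was dim in PR and FA. Its means there, 5.01 and 4.89, were below the 5.35 at which the second Irs1 probe missed that flag on CD replicate 4. The size of the Foxo3 fall may thus depend on the background treatment and is uncertain. Gsk3b, a kinase that Akt inhibits, fell by 0.68 and 0.77 (adjusted p = 0.000497 and 0.000199), while its relative Gsk3a rose by 0.22 in PR (adjusted p = 0.00508) but by 0.07 with adjusted p = 0.233 under scaling to the 75th percentile. Eif4ebp1, a brake on translation that mTOR releases, rose by 0.22 in FA (adjusted p = 0.0181); without FA replicate 1 the change was 0.20 with adjusted p = 0.05, and under the normexp and quantile setting 0.16 with adjusted p = 0.0539.

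Of the 11 other adaptors, 2 were called lower and 1 higher in each comparison with CD, with medians of -0.08 and -0.02. The shares of the 18913 genes were 14.1% lower and 15.2% higher in PR, and 16.4% and 19.1% in FA. Grb10, an imprinted gene whose protein restrains insulin and IGF1 receptors, read 8.07, 8.31, 7.97 and 7.76 in CD, 7.24, 7.26, 7.20 and 7.23 in PR, and 7.14, 7.21, 6.91 and 7.13 in FA. The CD brains lay above all others, and Grb10 fell by 0.79 in PR and 0.93 in FA (limma adjusted p = 0.00038 and 0.000143). Sh2b1, an adaptor that enhances insulin and growth hormone signalling, rose by 0.28 and 0.36 (adjusted p = 0.00963 and 0.00202). Of the 2 other receptors, Igf2r, which clears IGF2, fell by 0.38 and 0.47 (adjusted p = 0.00131 and 0.000315).

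The list around phosphoinositide 3-kinase and Akt had 3 of 15 genes called lower and 1 higher in PR, and 4 lower and 1 higher in FA, with a median of -0.05 in both. The shares of the 18913 genes were 14.1% lower and 15.2% higher in PR, and 16.4% and 19.1% in FA. Pik3ca, a catalytic subunit, rose by 0.60 in PR (limma adjusted p = 0.000274) and by 0.23 in FA (adjusted p = 0.0349); the FA call was lost without CD replicate 1, 2 or 4 or FA replicate 1 or 4 (0.18 to 0.23, adjusted p 0.0617 to 0.094), with the replicate block (0.0697), with only 2 groups (0.0691) and by the Tukey test (0.0933).

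Downstream of the growth hormone receptor, 3 of 7 genes were called lower in PR and 4 of 7 in FA, with none higher and medians of -0.13 and -0.23. Beside them, 14.1% of the 18913 genes were called lower and 15.2% higher in PR, and 16.4% and 19.1% in FA. Stat5a, which carries the growth hormone signal to the nucleus, read 8.03, 8.06, 8.04 and 7.80 in CD, 7.35, 7.59, 7.65 and 7.79 in PR, and 7.67, 7.80, 7.67 and 7.68 in FA. The PR brains were all below the lowest CD brain, and Stat5a fell by 0.39 in PR (limma adjusted p = 0.0104). In FA it fell by 0.28 (limma adjusted p = 0.0411), with 3 of 4 brains below all CD brains. Of the 3 measured binding proteins and their regulators, 0 were called in PR and 1 lower in FA. Igfbp7, well above background on 0 CD, 3 PR and 2 FA arrays and so outside that count, was called higher in PR and in FA (limma adjusted p = 8.23e-05 and 0.000142), with signals too near background to give a size.

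Among the 6 measured genes of the other ligands and the growth hormone axis, 2 were called higher in PR and none in FA by limma, with medians of 0.10 and -0.05. The shares of the 18913 genes called higher were 15.2% in PR and 19.1% in FA. Igf2, the second IGF, read 6.85, 7.07, 6.75 and 6.69 in CD, 7.68, 7.27, 7.25 and 7.16 in PR, and 7.02, 6.99, 6.75 and 6.90 in FA. The PR brains were above all others, with a rise of 0.50 (limma adjusted p = 0.0106), and FA differed from CD by 0.08 (adjusted p = 0.663). The somatostatin gene Sst rose by 0.17 in PR (adjusted p = 0.0281), but by 0.03 with adjusted p = 0.671 under scaling to the 75th percentile. The call was also lost without CD replicate 1 or 2 or PR replicate 1, 3 or 4 (0.14 to 0.17, adjusted p 0.0574 to 0.0695), with only 2 groups (0.0602) and by the Tukey test (0.0504). Ins2 changed by 0.02 and -0.18 (adjusted p = 0.926 and 0.388) and Ghrh by -0.52 and -0.39 (adjusted p = 0.0603 and 0.134).

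Growth hormone itself, the ligand of Ghr, is a product of the pituitary. Gh read 7.84, 8.37, 7.73 and 7.82 in CD, 2.24, 2.27, 3.10 and 2.84 in PR, and 2.58, 2.27, 2.26 and 6.16 in FA. It was well above background on all 4 CD arrays, on no PR array and on FA replicate 4 only, and in PR it was at least 19.8-fold lower than in CD (limma adjusted p = 0.000549), set against the lowest signal measured above background. Prl, another pituitary hormone, showed the same arrays high: 7.89, 7.84, 7.98 and 7.91 in CD and 7.35 in FA replicate 4.

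Of the 8 pituitary markers, Gh and Prl were called lower in PR and in FA and no marker was called higher (medians -0.53 and -0.59). Fshb was well above background on no CD array, 1 PR array and no FA array, and Tshb on only 1 CD, 2 PR and 1 FA array. The 3 markers measured on all arrays, of which the Pou1f1 probe was the brightest, averaged 10.16 to 10.47 in CD, 9.99 to 10.22 in PR and 9.88 to 10.40 in FA. Of these, Pomc changed by -0.52 in PR and -0.42 in FA (limma adjusted p = 0.107 and 0.18). Each PR brain was below each CD brain for Pomc. Pou1f1 changed by -0.15 and -0.14, and Lhb by -0.07 and 0.13. The Pou1f1 probe averaged 14.17 in CD, 14.02 in PR and 14.03 in FA. It was thus bright in PR too, where neither Gh nor Prl was well above background on any array. The mean over the 3 markers did not follow Gh and Prl and is no measure of the pituitary RNA in a sample. Cga, well above background on 4 CD, 4 PR and 3 FA arrays, changed by -0.79 and -1.62 (limma adjusted p = 0.497 and 0.153). The part of pituitary RNA in the differences of the members was not tested.

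Counts of called markers of other cells are to be read beside the shares of all 18913 genes, 14.1% lower and 15.2% higher in PR and 16.4% and 19.1% in FA, and no list was tested as a set. For endothelium, 2 of 5 markers were called higher in PR (Pecam1 and Tek), and 2 higher (Cldn5 and Tek) and 1 lower (Flt1) in FA (medians 0.30 and 0.16). Tek changed by 0.76 in PR and 0.88 in FA, and Pecam1 by 0.39 and 0.16. Flt1 changed by -0.03 in PR and -0.33 in FA (limma adjusted p = 0.726 and 0.00301). Cdh5, called in neither, changed by -0.11 and -0.16. The brightest endothelial probe was that of Cldn5 (0.30 in PR, adjusted p = 0.0576, and 0.31 in FA, adjusted p = 0.0432), and the mean over the list was 9.80 to 9.97 in CD, 9.97 to 10.29 in PR and at most 10.13 in FA, where all 4 arrays lay above the CD arrays. For mural cells 2 of 5 were called higher in PR (Rgs5 and Cspg4) and 1 in FA (Rgs5; medians 0.18 and 0.09), with Acta2, called in neither, the brightest probe and means of 9.65 to 9.69 in CD, 9.83 to 9.93 in PR and 9.58 to 9.85 in FA. Of the microglial markers, with Csf1r the brightest probe (adjusted p = 0.0548 in PR and 0.0465 in FA), 1 of 5 was called lower in PR and 2 in FA (median -0.14 in both), and their mean was 11.42 to 11.54, 11.34 to 11.49 and 11.32 to 11.44. The microglial list was split. Aif1, Cx3cr1 and Csf1r had fitted changes below 0 in PR and in FA. P2ry12 (0.15 in PR and 0.13 in FA) and Tmem119 (0.14 and 0.05) had changes above 0, and neither was called. The part of these cell types in the changes of the members was not tested.

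Counts and medians of the other lists, in PR and in FA against CD, stand beside the same shares (14.1%, 15.2%, 16.4% and 19.1%). Olfactory bulb had 1 of 6 markers called lower and 1 higher in PR and 1 lower in FA, with medians of -0.26 and -0.26, the largest change being that of Eomes (-0.66 and -1.02). Red blood cells had 0 of 5 called in PR and 1 lower in FA (medians -0.19 and -0.31). For astrocytes 1 of 5 was called lower and 2 higher in PR, and 1 each in FA (-0.02 and 0.11), and for oligodendrocytes 1 of 5 higher in each (0.06 and 0.12). Choroid plexus, a source of Igfbp2, had 1 of 6 higher in PR and none in FA (0.03 and 0.02), and meninges 0 of 7 in PR and 2 lower in FA (-0.01 and -0.08). The meningeal mean split the FA brains: 11.24 in replicate 1, above the CD range of 10.90 to 10.96, and 10.65, 10.72 and 10.66 in the others, below it. Neurons gave 1 lower and 1 higher of 4 in PR and 1 higher in FA (-0.04 and -0.06). In the cerebellar list 1 of 6 was lower and 2 higher in PR, and 2 lower and 1 higher in FA (0.10 and 0.03). Of the 4 liver markers none was called in PR and Serpina1a was called higher in FA (0.56, limma adjusted p = 0.00686), with medians of 0.15 and 0.04. Whether any of these bears on the members was not tested.

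The genes whose values followed a member most closely over the 12 arrays were taken from 23753 probes well above background on every array, as a description. For Igf1r these were Arhgef12 (Pearson r = 0.984) and Unc80 (r = 0.98), and for the Ghr variant 1 probe Meig1 (r = 0.971) and Tceal3 (r = 0.955). For the brightest Igf1 probe they were Ubfd1 (r = 0.942) and Ikbkg (r = 0.889), and for the brightest Insr probe Atrx (r = 0.89) and Lpgat1 (r = 0.879). The arrays of a group share diet and slide, which enter into these values. With the group means removed, r was 0.92 and 0.879 for the genes like Igf1r, 0.915 and 0.847 for those like Ghr, 0.947 and 0.886 for those like Igf1, and 0.908 and 0.875 for those like Insr. Both sets of r come from the same 12 arrays that picked these genes out of 23753 probes. Such picking favours high values, and neither set is an independent check.

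Promoter windows from RefSeq (GRCm38.p6, 250 bases before to 50 after each transcript start) matched 9 of the 10 members with 11 windows. Igf1r had 76% G and C and 48 CpG in its window, Irs2 72% and 41, Irs1 71.3% and 28, Igfbp3 71.7% and 37, and Igfbp4 71.3% and 27, beside medians of 52.7% and 7 over 32851 windows. The Igf1 window had 52.3% and 6. Igfbp5 had 56.3% and 10, the 2 Ghr windows 52.3% and 8 and 67% and 23, and the 2 Igfbp2 windows 67% and 18 and 57.3% and 14.

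Motifs were searched on both strands as letters only. The FoxO motif TGTTTAC (in 3.65% of the 32851 windows) and the Stat motif TTCNNNGAA (8.3%) were in none of the 11 windows. The E-box CACGTG, in 7.15% of windows, was in 1 window each of Irs1, Irs2 and Igfbp2, and TATAAA, searched on the sense strand (8.32%), in that of Igfbp4, 28 bases before the start. In Irs1 the E-box began 115 bases before the transcript start (chr1:82291537-82291566, reverse strand, GRCm38.p6), in Irs2 44 bases before (chr8:11008956-11008985, reverse strand) and in Igfbp2 142 bases before (chr1:72824326-72824355, forward strand). Of the 5 genes called lower in FA, Igf1r, Igfbp5 and Ghr had none, and Igfbp2, which has it, was not called. The stretches are shown so that the match can be read; capitals mark the E-box, and no binding was measured.
Irs1: cagaggctccgtCACGTGttttgctcctct
Irs2: gtaacgcagagtCACGTGttgttttgctct
Igfbp2: cgtgtgcacaagCACGTGccctcacgcaag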

How the data were processed

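Whole-brain RNA of 12 mice was hybridised to single-colour Agilent arrays, and the scanner files were written by Agilent Feature Extraction 11.0.1.1, per the file headers. The authors normalised the intensity values by qspline and deposited 1 linear intensity per probe (39429 probes from 43020 spots). Probes are placed on mm9 by the array design. Here log2 of these values was fitted over all probes and the 3 groups with limma 3.58.1 in R 4.3.3, with Benjamini-Hochberg adjustment over all probes for each of 3 comparisons, and tested on simulated data. A gene was represented by its brightest probe, and all member probes are reported. The flag for signal well above background comes from the scanner software, and 50% or more of a probe's spots had to carry it, and 27068 to 28458 spots per array were marked in CD, 31266 to 33478 in PR and 30408 to 31672 in FA. The net signal of negative controls was 28.1 to 34.8 in CD, 42.7 to 51.2 in PR and 39.3 to 47.6 in FA, so that CD arrays differed from the others in both. With 4 arrays per group, precision is limited by their number. The p-values measure the spread between brains hybridised on the same slide. They hold no spread between slides, because each diet had its own.

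The members and the lists were chosen with earlier results of these data known. The text names all members, Igf2, Ins2, Gh, Ghrh and Sst, and in each comparison and direction at most the 5 called pathway genes of largest change among those well above background on 12 of 12, of which 1 lower in FA is left out. Prl and single markers were added after their values were seen. Lists are described by counts and medians without a test of the list. Alternatives were another normalization, normexp background correction with an offset of 50 and quantile normalization together, a filter on dim probes, a variance trend with robust fit, a block for replicate number, 2 groups only, the mean of all probes of a gene, the methods' Tukey test, and each array left out. The 11 promoter methylation samples were not analysed here. Whether a probe lies in a coding exon or a UTR was not determined. Figures were drawn with matplotlib 3.10.9.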

Additional observations from a re-analysis of the deposited data

Results flagged for a closer look

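In 7 groups of 4 brains 1 brain stood far from its group at a member probe, with a gap to its nearest neighbour above the 95% limit for such gaps. Chance alone would do this in about 1 in 20 groups, and 57 groups were examined. For the brightest Igf1 probe CD replicate 4 read 10.25 and its neighbour 9.80. At Insr probe A_52_P494514 the same brain read 8.26 beside 8.47. Insr probe A_55_P2173927 read 6.58 in PR replicate 2 beside 6.79. The Igfbp2 probe A_66_P135391 read 12.70 in FA replicate 3 beside 12.49. Igfbp4 read 7.98 in PR replicate 2 beside 8.14, and all PR brains remained above all CD brains. Ghr variant 1 read 9.63 in CD replicate 2 beside 9.84, and the variant 2 probe read 7.38 in FA replicate 4 beside 7.55. What sets these brains apart was not tested.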

How the results depend on the processing

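Counts of member genes called were 3 in PR against CD, 6 in FA against CD and 1 in FA against PR. Other settings gave 2 to 4 for PR and 4 to 6 for FA. Between FA and PR the count was 0 with 75th percentile scaling, with quantile normalization, with only 2 groups compared, with the mean of all probes of a gene, with the Tukey test and with a 75th percentile scaling centred on bright probes, an alternative chosen after seeing the data. Leaving out 1 array gave 3 to 4, 4 to 6 and 0 to 1.

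With the replicate block the counts were 3, 6 and 0. Arrays of the same replicate number in different groups correlated at -0.0629 to 0.196 after group means were removed. These values gave no sign that the numbers pair the mice, and they cannot show that the numbers do not.

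Of 30 log2 changes of members, the call and sign stayed for 30 with qspline rerun without outlier spots, with dim probes removed and with the variance trend, 29 with quantile normalization and the block, 27 with 75th percentile scaling, normexp with offset 50 and quantile normalization (the normexp setting), 2 groups and Tukey, and 24 with the mean of probes. Signs turned for Irs2 in PR (-0.03 and, centred, -0.04), for Igf1 with the mean of probes (-0.11 in PR and -0.11 in FA), for Irs1 in FA against PR with the mean of probes (0.09) and for Igfbp3 in FA in the normexp setting (-0.01). Leaving out 1 array spanned 0 for Igfbp2 (-0.01 to 0.10) and Igfbp3 (-0.06 to 0.23) in FA against CD, and for Igf1 (-0.02 to 0.07) and Insr (-0.06 to 0.02) in FA against PR.

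Over all probes the balance of calls depended on the setting: the normexp setting, in which several choices change at once, called 3685 lower and 4665 higher in PR (6532 and 5288 before) and 4814 lower and 6348 higher in FA against CD (7109 and 6449 before). Scaling to the 75th percentile called 8726 lower and 5963 higher in PR, 9518 and 6106 in FA against CD, and 116 lower and 23 higher in FA against PR (152 and 90 before), or 102 and 24 when centred. The cause was not tested.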
